A study of Homo sapiens with 8 samples.

Results

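The genes that build tight junctions, desmosomes and keratin filaments were followed in HCCLM3, an established human hepatocellular carcinoma cell line. They were chosen by symbol: every claudin (CLDN), keratin (KRT), plakophilin (PKP), zonula occludens (TJP), desmocollin (DSC), desmoglein (DSG), PARD3 and PARD6 symbol, together with OCLN, MARVELD2, F11R, CGN, CGNL1, CRB3, DSP, JUP, PPL, EVPL, CTNNA1 and CTNND1. This gave 42 of the 11818 genes with values. MARVELD3 and GRHL2, which the rule also names, were not analysed here. Messenger RNA had been sequenced in 8 libraries. There were 4 NC libraries, whose genotype is labelled WT, and 4 siRNA libraries, from HCCLM3 cells transiently transfected with an siRNA against circPTK2, a circular RNA from the gene of focal adhesion kinase. The labels do not expand NC and do not say whether NC cells received a control siRNA. Nor is it stated that the libraries were grown as separate cultures, so the p-values reflect library-to-library spread that may be purely technical.

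Tight junctions seal the space between neighbouring epithelial cells: claudins and occludin span the membrane, and scaffold proteins such as the zonula occludens proteins and cingulin tie them to actin. Desmosomes are the spot welds of the same cells, in which desmosomal cadherins bind through plakoglobin and plakophilins to desmoplakin, and desmoplakin binds keratin filaments. Keratins assemble from 1 type II and 1 type I chain, and in hepatocytes the pair is KRT8 with KRT18, whereas KRT7 and KRT19 are known from bile duct cells and KRT20 from intestinal and urothelial epithelium.

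Values are reads per gene divided by a scaled library size, called scaled reads here, and are listed in the order of replicates 1 to 4. Recovered reads on the listed genes numbered 37087203 to 43512175 in the NC libraries and 28077305 to 32532669 in the siRNA libraries. The siRNA libraries lay close together, with Spearman correlations across genes of 0.990 to 0.995, whereas NC replicates 1 and 2 stood apart from NC replicates 3 and 4 (0.919 to 0.938 between the pairs, 0.985 and 0.987 within them). No batch is labelled. The pairs were told apart by these values. Limma fits against a single NC pair, given below, leave out the gap between the pairs. Their p-values rest on the spread within that pair and within the siRNA libraries. They describe the values and do not test the siRNA against the full NC spread. Linear PTK2 mRNA had 178, 227, 175 and 161 in the NC and 210, 217, 219 and 204 in the siRNA libraries, and did not pass the limma test (log2 change 0.21, adjusted p = 0.167). These reads do not measure the circular RNA. Of 10 hepatocyte markers 7 were measured, with summed values of 74.3 to 114 in the NC and 87.7 to 113 in the siRNA libraries. All 7 passed limma, 3 higher and 4 lower. SERPINA1 passed the filter on low values, a value of 1 in 4 libraries, only through the siRNA libraries, and APOB and FGB only through the NC libraries. ALB rose from 9.20 ± 1.18 to 32.1 ± 6.05, HNF4A rose 1.80-fold, and SERPINA1 rose from 0.116 ± 0.0884 to 5.49 ± 1.299. AFP fell from 3.78 ± 0.938 to 1.81 ± 0.737, TF from 20.4 ± 4.62 to 5.86 ± 0.710, APOB from 8.16 ± 5.61 to 0.421 ± 0.276 and FGB from 23.7 ± 12.3 to 0.578 ± 0.070 (SD, n = 4, limma adjusted p between 2.5e-05 for SERPINA1 and 0.0209 for AFP). Of 8 fibroblast, 6 endothelial and 7 leukocyte markers, 1 each was measured. LUM ranged from 20.3 to 64.1 in the NC and from 15.5 to 25.5 in the siRNA libraries, PECAM1 from 7.53 to 19.8 and from 3.25 to 4.93, and CD68 from 52.3 to 91.0 and from 76.3 to 140.1. The part of other cell types in the results was not tested. In bulk RNA, fewer cells of a type and less RNA per cell cannot be told apart.

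All 42 genes were tested with limma on log2(value + 1), with Benjamini-Hochberg adjustment over 11812 genes and a threshold of 0.05. KRT4 passed the filter on low values only through the NC libraries and DSG4 only through the siRNA libraries. In the siRNA libraries 9 of the 42 genes rose, or 21.4%, against 21.7% of all genes tested. A further 7 genes fell, or 16.7%, against 20.8% of all genes. The shares were close to those of all genes, so the counts by themselves show no change particular to junctions and keratins. The median log2 change was 0.19 for the 42 genes and 0.012 for all genes tested. The siRNA values lay wholly above the NC values for 10 genes (22.4% of all genes) and wholly below them for 5 genes (20.9% of all genes).

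**Figure D1:**
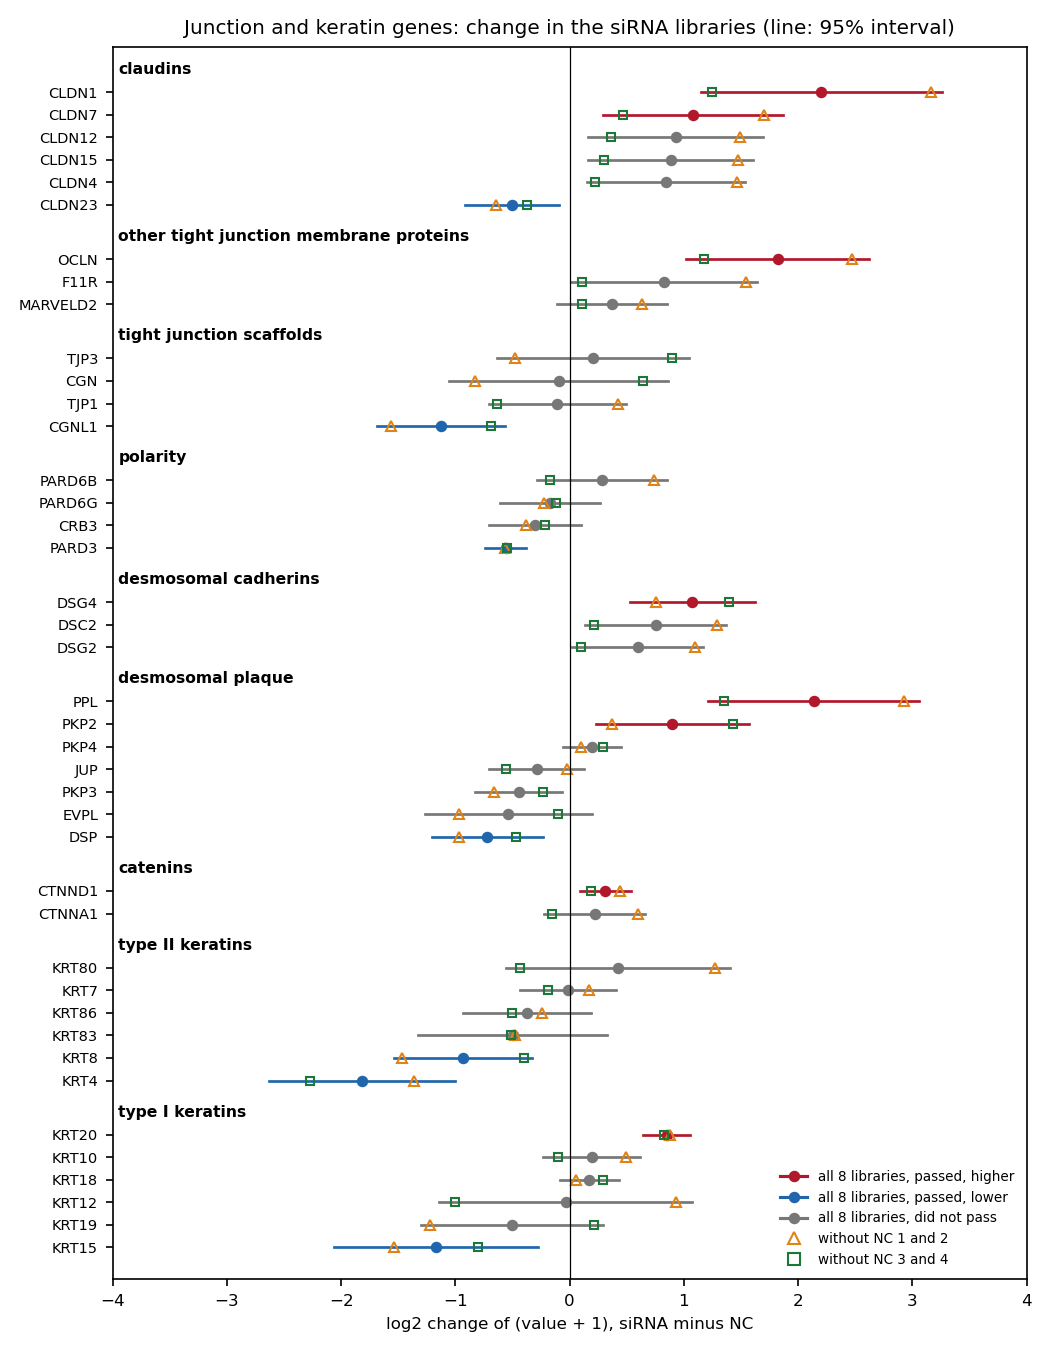
Log2 change of 41 of the 42 genes, siRNA minus NC, by family, with its 95% interval from limma over 8 libraries. Filled circles are the fit with all libraries, open triangles the fit without NC replicates 1 and 2 and open squares the fit without NC replicates 3 and 4. CLDN1 had the largest increase among the 42 genes on this log2(value + 1) scale (2.20; by the ratio of means DSG4 and PPL rose more), and the triangle and square of TJP1 and of KRT80 lie on opposite sides of 0.

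Among the 6 claudins, the strand-forming proteins of the tight junction, CLDN1 and CLDN7 rose, CLDN23 fell, and CLDN4, CLDN12 and CLDN15 did not pass. The claudin median was a log2 change of 0.91. CLDN1, a barrier-forming claudin, maps to the minus strand of chromosome 3, bases 190305701 to 190322475 in GRCh38 (GENCODE v29). CLDN1 had 45.1, 46.8, 12.2 and 10.8 scaled reads in the NC and 108, 104, 123 and 109 in the siRNA libraries. Every siRNA library was above every NC library, and NC replicates 3 and 4 were far below NC replicates 1 and 2. The means were 28.7 ± 19.9 and 111 ± 8.41 (SD, n = 4), a 3.86-fold rise with a log2 change of 2.20 (SE 0.47, limma adjusted p = 0.00543). The size of the CLDN1 rise depended on the NC pair: the log2 change was 3.16 against NC replicates 3 and 4 alone and 1.25 against NC replicates 1 and 2 alone, and it passed limma in both.

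CLDN4, which tightens the barrier against sodium in cultured epithelia, was the most abundant claudin per length of transcript, at 85.8 scaled reads per kb in the NC and 141 in the siRNA libraries. CLDN4 had 476, 527, 219.9 and 205 in the NC and 612, 575, 561 and 597 in the siRNA libraries. The groups did not overlap, but the gap between the NC pairs exceeded the gap between siRNA libraries and NC replicates 1 and 2. CLDN4 did not pass limma with all libraries (log2 change 0.84, 95% interval 0.15 to 1.53, adjusted p = 0.0520). It passed without NC replicate 1 (adjusted p = 0.0283), without NC replicate 2 (0.0116), without both (log2 change 1.46, adjusted p = 5.59e-08) and against NC replicates 1 and 2 alone (log2 change 0.23, adjusted p = 0.0262). The fits against a single NC pair leave out the gap between the pairs, so they do not overturn the result with all libraries. CLDN7, known from simple epithelia, had 6.86, 5.79, 1.78 and 2.46 in the NC and 8.44, 6.83, 9.40 and 12.4 in the siRNA libraries. The groups touched at 6.86 and 6.83, and the log2 change was 1.08 (SE 0.35, limma adjusted p = 0.0331). CLDN7 shares its locus with ELP5 on the other strand, and its call was lost without NC replicate 3 or 4 or siRNA replicate 1, 3 or 4, each left out in turn (adjusted p = 0.0663 to 0.0906). The CLDN7 change was 1.70 against NC replicates 3 and 4 alone (4.41e-05) and 0.47 against NC replicates 1 and 2 alone, where it did not pass (0.0772). CLDN23 fell from 8.27 ± 1.06 to 5.60 ± 1.35 (SD, n = 4; log2 change -0.51, limma adjusted p = 0.0496), and this call was lost without NC replicate 1, 3 or 4 or siRNA replicate 1, 2 or 3 (0.0637 to 0.116) and against NC replicates 1 and 2 alone (log2 change -0.37, 0.149). CLDN12 (log2 change 0.93, adjusted p = 0.0533) and CLDN15 (0.89, adjusted p = 0.0507) lay just beyond the limma threshold.

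OCLN encodes occludin, the first transmembrane protein identified in tight junctions, and maps to the plus strand of chromosome 5, bases 69492292 to 69558104. OCLN had 30.6, 22.8, 7.65 and 13.4 in the NC and 56.2, 57.8, 65.0 and 65.0 in the siRNA libraries. All siRNA values exceeded all NC values, and NC replicates 3 and 4 were again the lowest. The means were 18.6 ± 10.2 and 61.0 ± 4.67 (SD, n = 4), a 3.28-fold rise with a log2 change of 1.82 (SE 0.35, limma adjusted p = 0.00359). The log2 change of OCLN was 2.47 against NC replicates 3 and 4 alone and 1.17 against NC replicates 1 and 2 alone. F11R, the junctional adhesion molecule JAM-A, did not pass (log2 change 0.83, limma adjusted p = 0.0933). Its values were 116, 101, 36.1 and 42.9 in the NC and 118, 104, 118 and 128 in the siRNA libraries, so that NC replicates 1 and 2 lay among or just below the siRNA libraries. MARVELD2, tricellulin of the corners where 3 cells meet, had values of 12.3 to 26.9 in the NC and 20.9 to 28.5 in the siRNA libraries and did not pass (adjusted p = 0.191).

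Since CLDN1 and OCLN rose together, the promoter windows of both are shown, from 250 bases before to 50 bases after the start given by RefSeq (GRCh38.p14). A promoter entry was matched for 24 of the 42 genes. Letters in capitals mark a match to CAGGTG, an E-box bound by the SNAI and ZEB repressors of epithelial genes, searched on both strands. The CLDN1 window is chr3:190322397-190322696 on the minus strand and the OCLN window chr5:69492297-69492596 on the plus strand.
CLDN1: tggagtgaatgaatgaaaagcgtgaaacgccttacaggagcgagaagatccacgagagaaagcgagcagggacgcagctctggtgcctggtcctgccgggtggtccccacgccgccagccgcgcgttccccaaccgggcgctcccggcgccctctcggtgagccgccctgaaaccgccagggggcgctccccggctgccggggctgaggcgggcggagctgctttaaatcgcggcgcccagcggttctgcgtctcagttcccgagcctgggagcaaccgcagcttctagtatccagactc
OCLN: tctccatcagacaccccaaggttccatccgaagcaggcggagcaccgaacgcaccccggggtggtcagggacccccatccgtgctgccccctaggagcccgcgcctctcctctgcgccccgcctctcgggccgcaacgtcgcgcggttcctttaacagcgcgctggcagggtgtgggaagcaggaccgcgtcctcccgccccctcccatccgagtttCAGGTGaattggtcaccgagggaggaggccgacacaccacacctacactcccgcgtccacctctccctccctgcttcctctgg
The CLDN1 window is 67% G and C and holds no CAGGTG. The OCLN window is 68% G and C and has 1 match, which begins 33 bases before the start. CAGGTG was found in 7 of the 24 promoters, or 29.2% (CRB3, DSC2, DSG2, DSP, KRT20, OCLN and TJP1), in 17.8% of the 9400 promoters of genes with values and in 20.6% of all 27305 promoters. The grainyhead motif AACCGGTT was in none of the 24 promoters, in 0.128% of those of genes with values and in 0.117% of all promoters. The AP-1 motif TGANTCA was in 2 of the 24, or 8.33% (CLDN4 and CLDN15), in 4.52% of those of genes with values and in 7.76% of all promoters. These matches describe the letters of the windows and say nothing of binding.

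**Figure D2:**
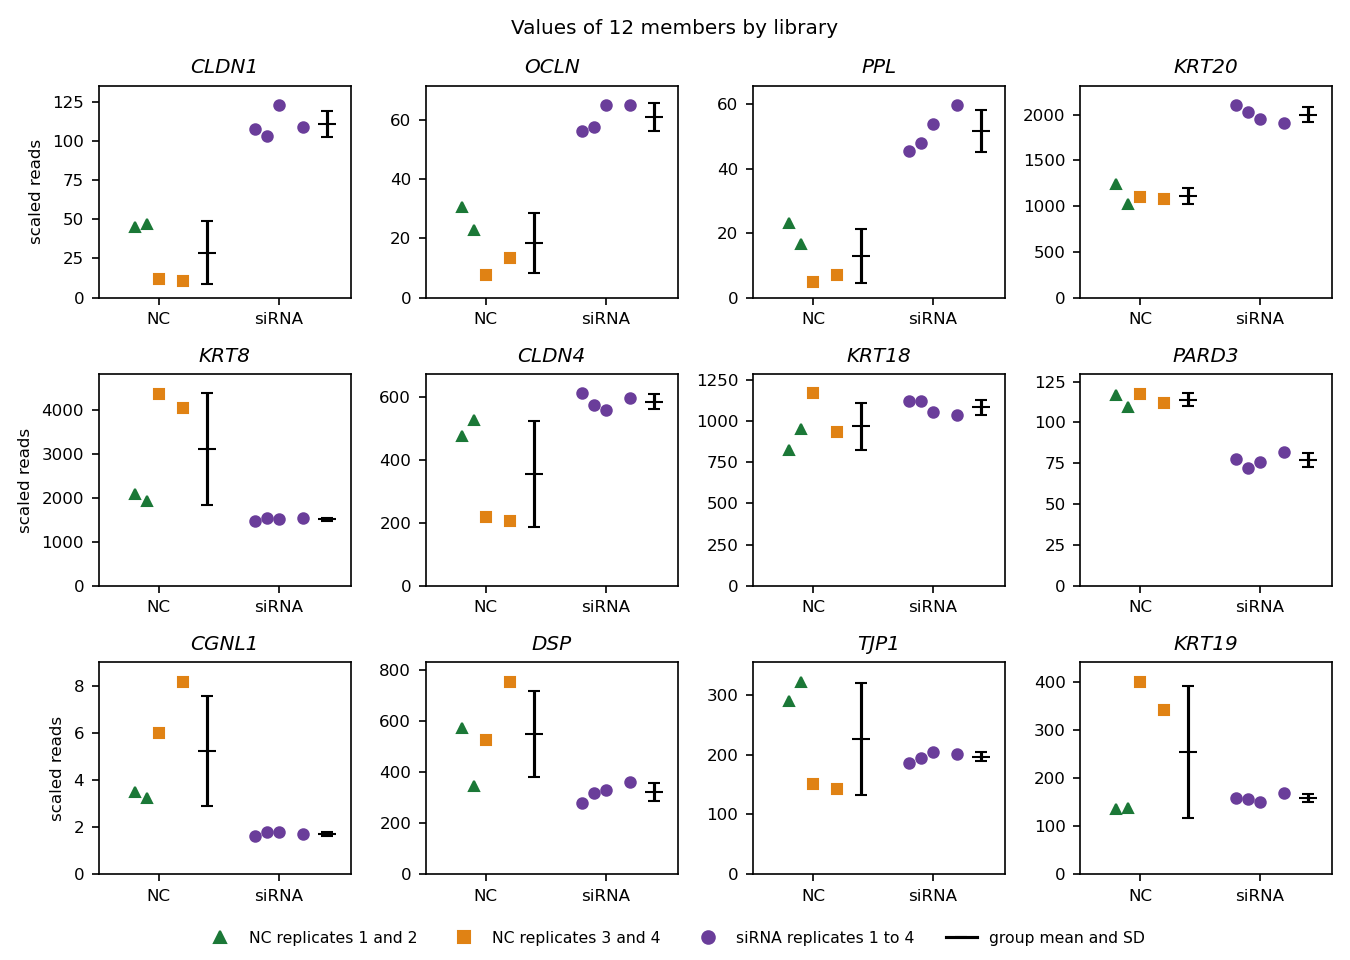
Scaled reads of 12 genes in each library, with NC replicates 1 and 2 as triangles, NC replicates 3 and 4 as squares, siRNA replicates as circles, and the mean and SD of each group of 4 as bars. For CLDN1, OCLN and PPL all siRNA libraries exceed both NC pairs, for PARD3 the NC libraries sit together at 110 to 117, and for TJP1 the siRNA libraries at 187 to 204 lie between the pairs.

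Among the scaffold genes of the tight junction CGNL1 fell, and TJP1, CGN and TJP3 did not pass. TJP1 encodes ZO-1, the first scaffold protein found at the tight junction. TJP1 had 291, 323, 150 and 142 in the NC and 187, 194, 204 and 201 in the siRNA libraries. The siRNA libraries lay between the NC pairs, and TJP1 did not pass (log2 change -0.11, 95% interval -0.71 to 0.49, limma adjusted p = 0.768). In the siRNA libraries TJP1 was higher than in NC replicates 3 and 4 alone by 0.42 on the log2 scale (limma adjusted p = 0.000392), and its log2 change against NC replicates 1 and 2 alone was -0.64 (adjusted p = 7.74e-05). These p-values leave out the gap between the NC pairs, which were told apart by the values. They show only that the siRNA libraries lay between the pairs, and no direction of change follows from them. CGNL1, paracingulin, which works beside cingulin at tight and adherens junctions, had 3.50, 3.26, 6.003 and 8.20 in the NC and 1.60, 1.79, 1.79 and 1.70 in the siRNA libraries. Every siRNA value was below every NC value, and CGNL1 fell by 1.12 on the log2 scale (SE 0.25, limma adjusted p = 0.00653), with changes of -1.56 against NC replicates 3 and 4 alone and -0.69 against NC replicates 1 and 2 alone. Cingulin itself, CGN, ranged from 18.2 to 91.0 in the NC and from 37.9 to 51.0 in the siRNA libraries and did not pass (log2 change -0.096, adjusted p = 0.875). The CGN change was -0.83 against NC replicates 3 and 4 alone (adjusted p = 0.00118) and 0.64 against NC replicates 1 and 2 alone (0.110). TJP3, which encodes ZO-3, was low, at 0.619 to 3.57 in the NC and 1.35 to 2.78 in the siRNA libraries, and did not pass (adjusted p = 0.680).

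PARD3, the scaffold of the polarity complex that positions tight junctions, had the smallest adjusted p among the decreases. PARD3 had 117, 109.7, 117 and 112 in the NC and 77.9, 72.3, 75.9 and 82.2 in the siRNA libraries. The groups were well apart and the NC pairs coincided. The means were 114 ± 3.72 and 77.1 ± 4.12 (SD, n = 4), a log2 change of -0.56 (SE 0.08, limma adjusted p = 0.000773), and -0.57 and -0.55 without the first and the second NC pair. Its partners PARD6B (adjusted p = 0.391) and PARD6G (0.502), which link PARD3 to atypical protein kinase C, did not pass, and neither did CRB3 (0.205), the apical Crumbs protein.

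Among the desmosomal cadherins, DSG2 and DSC2, the forms of simple epithelia, did not pass. DSG2 had 515, 532, 286 and 239.5 in the NC and 538, 586, 557 and 556 in the siRNA libraries. NC replicates 1 and 2 were close below the siRNA libraries and NC replicates 3 and 4 far below, and the log2 change was 0.59 (95% interval 0.02 to 1.17, limma adjusted p = 0.0876). DSC2 ranged from 30.1 to 71.7 in the NC and from 74.5 to 77.8 in the siRNA libraries (log2 change 0.76, adjusted p = 0.0511). Both passed without NC replicate 1 or NC replicate 2. Without NC replicates 3 and 4 neither passed (adjusted p = 0.261 for DSG2 and 0.0650 for DSC2). DSG4, a desmoglein known from the hair follicle, rose from 0.531 ± 0.385 to 2.22 ± 0.776 scaled reads (SD, n = 4; limma adjusted p = 0.00708), and in the NC libraries its level per length was the lowest of the 42 genes.

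In the desmosomal plaque PPL and PKP2 rose and DSP fell. PPL, periplakin, a plakin that links the plaque to intermediate filaments, maps to the minus strand of chromosome 16, bases 4882507 to 4960741. PPL had 23.1, 16.5, 4.85 and 7.11 in the NC and 45.3, 47.9, 53.7 and 59.6 in the siRNA libraries. The lowest siRNA value was well above the highest NC value, and NC replicates 3 and 4 were lowest. PPL rose 4.00-fold, from 12.9 ± 8.48 to 51.6 ± 6.37 (SD, n = 4; log2 change 2.14, SE 0.41, limma adjusted p = 0.00335), and its log2 change was 2.93 against NC replicates 3 and 4 alone and 1.35 against NC replicates 1 and 2 alone.

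PKP2, a plakophilin that recruits desmoplakin, had the opposite NC order, at 20.4, 17.6, 31.3 and 52.4, against 51.4, 51.3, 52.1 and 55.96 in the siRNA libraries. NC replicate 4 reached the siRNA range. PKP2 passed with all libraries (log2 change 0.90, SE 0.29, limma adjusted p = 0.0360) and lost its call without any 1 library other than NC replicate 4 (adjusted p = 0.0504 to 0.0836). The change was 0.37 against NC replicates 3 and 4 alone (adjusted p = 0.0805) and 1.43 against NC replicates 1 and 2 alone (2.53e-06). DSP, desmoplakin, the anchor of keratin filaments, maps to the plus strand of chromosome 6, bases 7541575 to 7586717. DSP had 571, 346, 527 and 754 in the NC and 278, 319, 331 and 362 in the siRNA libraries. NC replicate 2 fell within the siRNA range. DSP fell from 549.6 ± 168 to 323 ± 34.6 (SD, n = 4; log2 change -0.72, SE 0.21, limma adjusted p = 0.0247), a call lost without NC replicate 1 or siRNA replicate 1, 2 or 3 (0.0529 to 0.0720). The DSP change was -0.97 against NC replicates 3 and 4 alone (0.000617) and -0.47 against NC replicates 1 and 2 alone, where it did not pass (0.0755).

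JUP, plakoglobin, which binds the cadherin tails, had 333, 252, 177 and 227 in the NC and 182, 176, 212 and 223 in the siRNA libraries. The groups overlapped and JUP did not pass (log2 change -0.29, limma adjusted p = 0.233), although without NC replicates 3 and 4 it did (-0.55, adjusted p = 0.00580). PKP3, PKP4 and EVPL, envoplakin, the partner of periplakin, did not pass (adjusted p = 0.0599, 0.198 and 0.211). The log2 change of EVPL was -0.54, while periplakin rose. Of the catenins of adherens junctions, CTNND1, p120 catenin, which holds cadherins at the membrane, rose from 630.3 ± 65.5 to 781 ± 40.9 (SD, n = 4; log2 change 0.31, limma adjusted p = 0.0301), a call lost without NC replicate 3 or 4 or any 1 siRNA library (0.0502 to 0.0888) and against NC replicates 1 and 2 alone (log2 change 0.19, 0.0553). CTNNA1, alpha-catenin, did not pass (adjusted p = 0.393), with values of 366 to 671 in the NC and 578 to 582 in the siRNA libraries.

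Keratin genes held the 4 highest levels per length of the 42 genes in the NC libraries, and their order changed. KRT8 had 1458 scaled reads per kb of transcript in the NC libraries, ahead of KRT20 (640), KRT18 (619.5) and KRT19 (183). In the siRNA libraries KRT20 came first at 1152 per kb, ahead of KRT8 (713) and KRT18 (693), and KRT19 (114) ranked behind both catenins and CLDN4. KRT20 and KRT18 overlapped in the NC libraries, at 592 to 713 and 528 to 747 per kb, and so did KRT8 and KRT18 in the siRNA libraries, at 689 to 724 and 662 to 718. The 12 keratins summed to 4537, 4235, 7104 and 6475 scaled reads in NC replicates 1 to 4 and to 4843 to 4995 in the siRNA libraries. The siRNA sums lay between the NC pairs.

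KRT20, a type I keratin, maps to the minus strand of chromosome 17, bases 40875941 to 40885227. KRT20 had 1239, 1028, 1095 and 1081 in the NC and 2104, 2033, 1956 and 1910 in the siRNA libraries. The groups were far apart and the NC pairs did not separate. The means were 1111 ± 90.2 and 2001 ± 85.8 (SD, n = 4), a 1.80-fold rise with a log2 change of 0.85 (SE 0.09, limma adjusted p = 0.000178). This was the smallest adjusted p of the 42 genes, and the change was 0.88 against NC replicates 3 and 4 alone and 0.82 against NC replicates 1 and 2 alone. The KRT20 promoter window, chr17:40885193-40885492 on the minus strand (RefSeq, GRCh38.p14), is shown because KRT20 had this smallest p, with its CAGGTG match in capitals.
KRT20: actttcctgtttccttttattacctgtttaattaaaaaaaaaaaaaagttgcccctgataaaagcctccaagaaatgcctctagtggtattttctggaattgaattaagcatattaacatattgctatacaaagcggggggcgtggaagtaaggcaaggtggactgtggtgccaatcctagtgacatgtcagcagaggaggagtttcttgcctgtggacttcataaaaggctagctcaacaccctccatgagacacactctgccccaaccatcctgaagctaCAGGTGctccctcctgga
The match begins 32 bases after the start, and 44% of the window is G or C, against a median of 65% over the 24 promoters matched and 58.3% over all promoters.

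KRT8, the type II keratin of hepatocytes, maps to the minus strand of chromosome 12, bases 52897187 to 52949954. KRT8 had 2097, 1918, 4355 and 4033 in the NC and 1465, 1537, 1525 and 1540 in the siRNA libraries. All siRNA values were below all NC values, and NC replicates 3 and 4 were well above NC replicates 1 and 2. The means were 3101 ± 1271 and 1517 ± 35.2 (SD, n = 4), a log2 change of -0.93 (SE 0.27, limma adjusted p = 0.0207). It was -1.47 against NC replicates 3 and 4 alone and -0.40 against NC replicates 1 and 2 alone, both past the threshold, while without siRNA replicate 1, 2 or 3 the adjusted p was 0.0546, 0.0501 and 0.0503. KRT18, its type I partner, had 824, 949, 1167 and 930.1 in the NC and 1122, 1119, 1055 and 1034 in the siRNA libraries. The groups overlapped and KRT18 did not pass (log2 change 0.17, 95% interval -0.09 to 0.43, limma adjusted p = 0.254).

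The ratio of KRT8 to KRT18 was 2.54, 2.02, 3.73 and 4.34 in the NC and 1.31, 1.37, 1.45 and 1.49 in the siRNA libraries. The ratio was thus lower in every siRNA library than in any NC library. The log2 ratio averaged 1.59 ± 0.504 in the NC and 0.49 ± 0.0835 in the siRNA libraries (SD, n = 4), a difference of -1.11 with a 2-sided exact permutation p of 0.0286, the smallest that the 70 arrangements allow. The difference was -1.52 against NC replicates 3 and 4 alone and -0.69 against NC replicates 1 and 2 alone, each with an exact permutation p of 0.0667, the smallest possible there. KRT8 and KRT18 have 50 and 68 pseudogenes by symbol, and they overlap on opposite strands, with the use of strand in counting not stated. How reads were divided among these copies is not known.

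**Figure D3:**
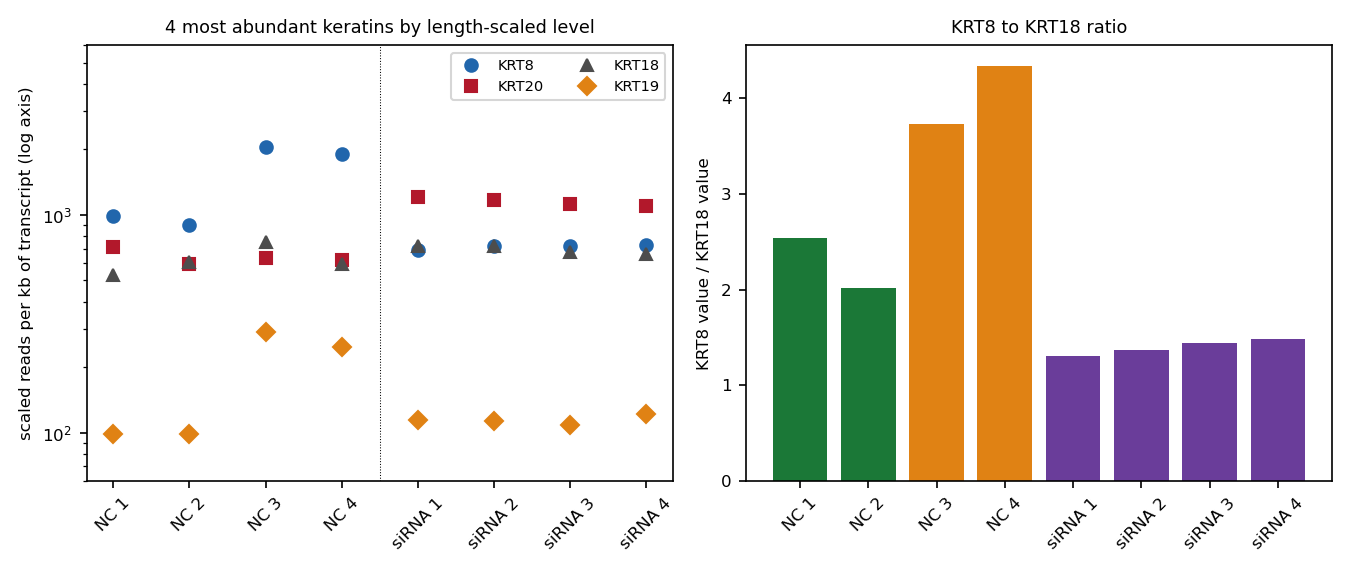
Left, scaled reads per kb of transcript of KRT8, KRT20, KRT18 and KRT19 in each library on a log axis. Right, KRT8 value divided by KRT18 value in each library, coloured by NC replicates 1 and 2, NC replicates 3 and 4, and siRNA. KRT20 is above KRT8 in the 4 siRNA libraries and below it in the 4 NC libraries, and the ratio is 1.31 to 1.49 in the siRNA libraries against 2.02 to 4.34 in the NC libraries.

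KRT19, a type I keratin that pairs with KRT8 in ducts, had 136, 137, 401 and 342 in the NC and 158, 157, 150 and 168 in the siRNA libraries. The siRNA libraries lay just above NC replicates 1 and 2 and far below NC replicates 3 and 4, and KRT19 did not pass (log2 change -0.51, limma adjusted p = 0.279). KRT80, a type II keratin, had the reverse NC order, at 197, 154, 47.8 and 57.9, with 111 to 163 in the siRNA libraries, and did not pass (log2 change 0.42, adjusted p = 0.461). KRT7 was low and level, at 10.5 to 18.1 in the NC and 11.97 to 16.8 in the siRNA libraries (log2 change -0.014, 95% interval -0.44 to 0.41, adjusted p = 0.961).

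KRT4, a type II keratin of the oral and oesophageal lining, had 6.84, 2.85, 1.04 and 3.15 in the NC and 0.356, 0, 0 and 0.217 in the siRNA libraries. No siRNA library reached the lowest NC value, and KRT4 fell (log2 change -1.82, SE 0.36, limma adjusted p = 0.00394). KRT15, a type I keratin of basal epithelial cells, fell from 7.06 ± 4.25 to 2.35 ± 1.06 (SD, n = 4; log2 change -1.17, limma adjusted p = 0.0394), a call lost without any 1 library other than NC replicate 1 (0.0521 to 0.104) and against NC replicates 1 and 2 alone (log2 change -0.80, 0.101). KRT10, KRT12, KRT83 and KRT86 did not pass, with means between 0.862 and 9.16. KRT83 and KRT86 are near-identical copies and KRT86 overlaps KRT7, so that their values are uncertain.

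Of the 16 calls, 8 held whichever library was left out: CLDN1, OCLN, PPL, DSG4 and KRT20 higher, and PARD3, CGNL1 and KRT4 lower. These fits share most of their libraries and keep libraries of both NC pairs, so they are no independent test of any call. DSG4 and KRT4 had moreover passed the filter on low values only through the group where they are high, so for them this adds no support. Further genes passed when a library was left out. Without NC replicate 1 these were CLDN4, CLDN15, F11R, MARVELD2, DSC2 and DSG2 (limma adjusted p = 0.00995 to 0.0458). Without NC replicate 2 they were CLDN4, CLDN12, CLDN15, F11R, DSC2, DSG2, PARD6B, EVPL and PKP3 (0.00551 to 0.0435). With edgeR on recovered reads CLDN7, CLDN23 and PKP2 did not pass (adjusted p = 0.0593, 0.0602 and 0.0678), and PKP3 did (0.0498). With equal library totals CLDN4 passed limma (adjusted p = 0.0366). CLDN12, CTNNA1, CTNND1, EVPL, CRB3, KRT10, PPL and F11R overlap other annotated protein-coding genes and OCLN overlaps 2 non-coding genes on the other strand. They may share reads with these. KRT19 has 5 pseudogenes by symbol, and OCLN, CTNNA1, PKP4 and CRB3 have 1 each. Without both NC replicates 1 and 2, 21 of the 42 genes were higher in the siRNA libraries (33.5% of all genes) and 11 were lower (32.4% of all genes). Without NC replicates 3 and 4, 12 were higher (29.7% of all genes) and 8 lower (28.1% of all genes). The fits share the same siRNA libraries, and TJP1, KRT12, KRT19 and KRT80 had opposite calls in them. Each of these fits leaves out the gap between the NC pairs, so its calls describe the values and add no independent test.

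The NC pairs themselves differed in many junction genes. The mean of NC replicates 1 and 2 and that of NC replicates 3 and 4 were at least 2-fold apart in 20 of the 42 genes, or 47.6%, against 15.5% of all genes. Among the 33 genes with a mean of at least 5 the count was 15, or 45.5%, against 13.4% of all such genes. In 11 of the 15, or 33.3% of the 33 genes against 7.40% of all such genes, NC replicates 1 and 2 were higher. These were CLDN1 (4.00-fold), KRT80 (3.32-fold), PPL (3.31-fold), CLDN7, F11R, OCLN, CLDN15, CLDN4, CLDN12, DSC2 and TJP1. In the other 4, KRT8 (2.09-fold), PKP2 (2.21-fold), CGN (2.66-fold) and KRT19 (2.72-fold), NC replicates 3 and 4 were higher. The pairs were told apart by the values and not by a label, so this is a description with no test. The siRNA mean was nearer to NC replicates 1 and 2 on the log2 scale in 29 of the 42 genes, or 69.0%, against 56.9% of all genes. It lay between the pair means in 10 of the 42 genes, or 23.8%, against 29.2% of all genes.

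**Figure D4:**
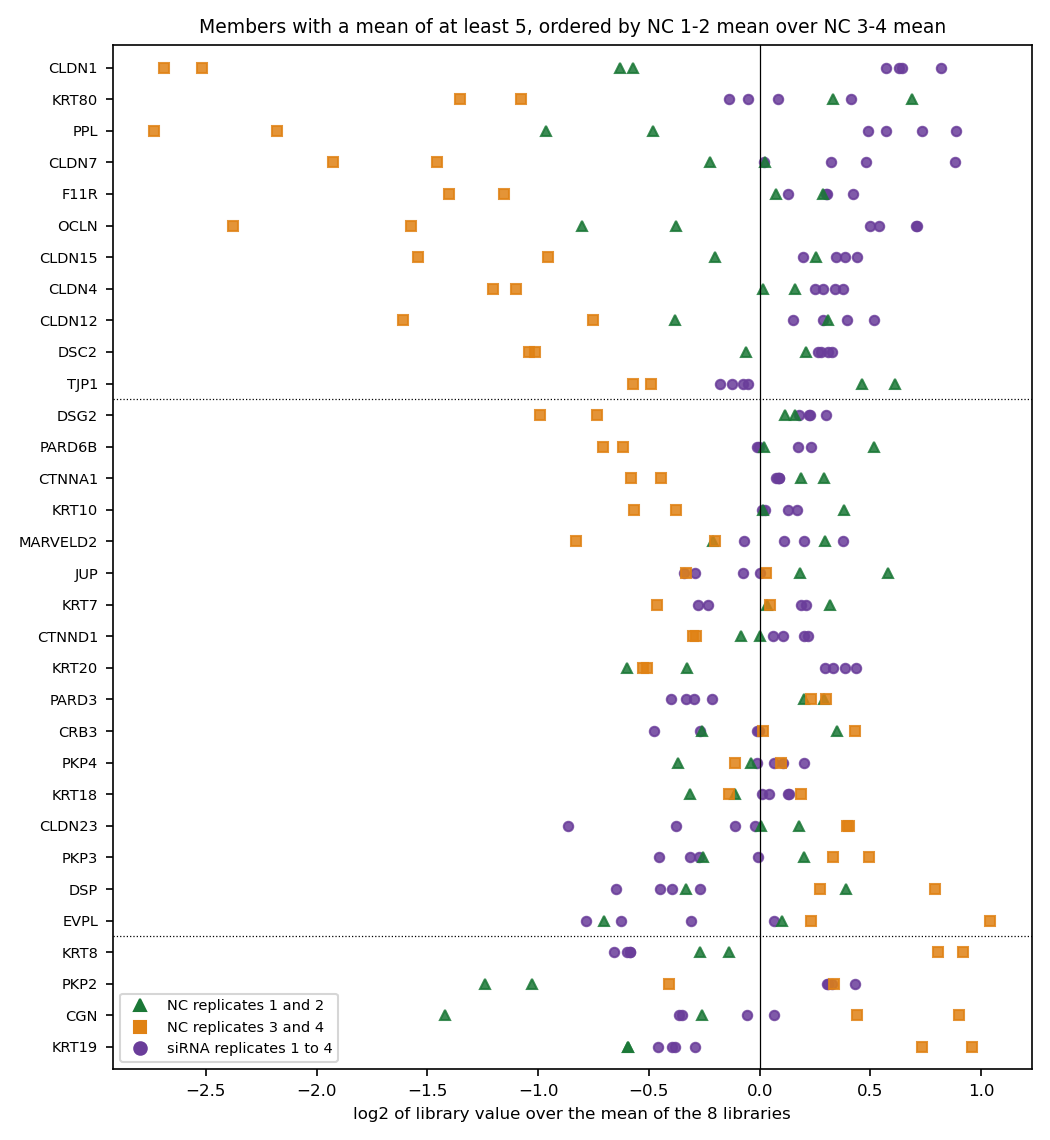
Each library's value of 32 of the 33 genes with a mean of at least 5, as log2 of its ratio to the gene's mean over 8 libraries, with genes ordered by the mean of NC replicates 1 and 2 over that of NC replicates 3 and 4. Dotted lines bound the 11 genes at least 2-fold higher in NC replicates 1 and 2 (top) and the 4 at least 2-fold higher in NC replicates 3 and 4 (bottom). In 13 of these 15 rows the siRNA mean is nearer to NC replicates 1 and 2. It lies beyond both pair means in all of these rows but KRT80, TJP1, CGN and KRT19. The share over all genes with such a gap was not computed.

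Some genes lay among neighbours that changed in the same direction. The 19 other genes within 5 Mb of PARD3 on chromosome 10 had a median log2 change of -0.56, equal to that of PARD3. The 37 neighbours of DSP on chromosome 6 had a median of -0.55, beside -0.72 for DSP, and the 33 neighbours of CGNL1 on chromosome 15 had -0.35, beside -1.12. After the median of each 10 Mb bin was removed from every library, a step chosen after earlier results of these data were seen, none of these 3 passed limma. The log2 change left was -0.15 for PARD3 (adjusted p = 0.339), -0.18 for DSP (0.499) and -0.73 for CGNL1 (0.0982), so that most of the CGNL1 difference remained. TJP1, CGN and TJP3 did not pass, among neighbours with medians of -0.55, -0.60 and -0.49. The neighbours of CLDN1, PPL, KRT8 and KRT20 had medians from -0.015 to 0.035, and those of OCLN 0.23. Neighbours were also higher for DSG4 (median 0.34), PKP2 (0.22), and DSC2 and DSG2 (0.40 each). With bin medians removed, DSG4 (log2 change 0.78, limma adjusted p = 0.0537) and PKP2 (0.50, 0.196) no longer passed. CTNND1, with a neighbour median of 0.076, did not pass either (0.076, 0.656). CLDN7 (log2 change 1.00, limma adjusted p = 0.0624) and CLDN23 (-0.55, 0.0751) also lost their calls, beside changes of 1.08 and -0.51 before the step. Genes in bins with too few genes, PARD6G among them, were left out of this step. With bin medians removed, 4 of 40 genes rose (18.3% of all genes) and 4 fell (18.4% of all genes). CLDN1, OCLN, PPL and KRT20 were still higher, and KRT4, KRT8, KRT15 and PKP3 lower. KRT4 had passed the filter on low values only through the NC libraries.

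**Figure D5:**
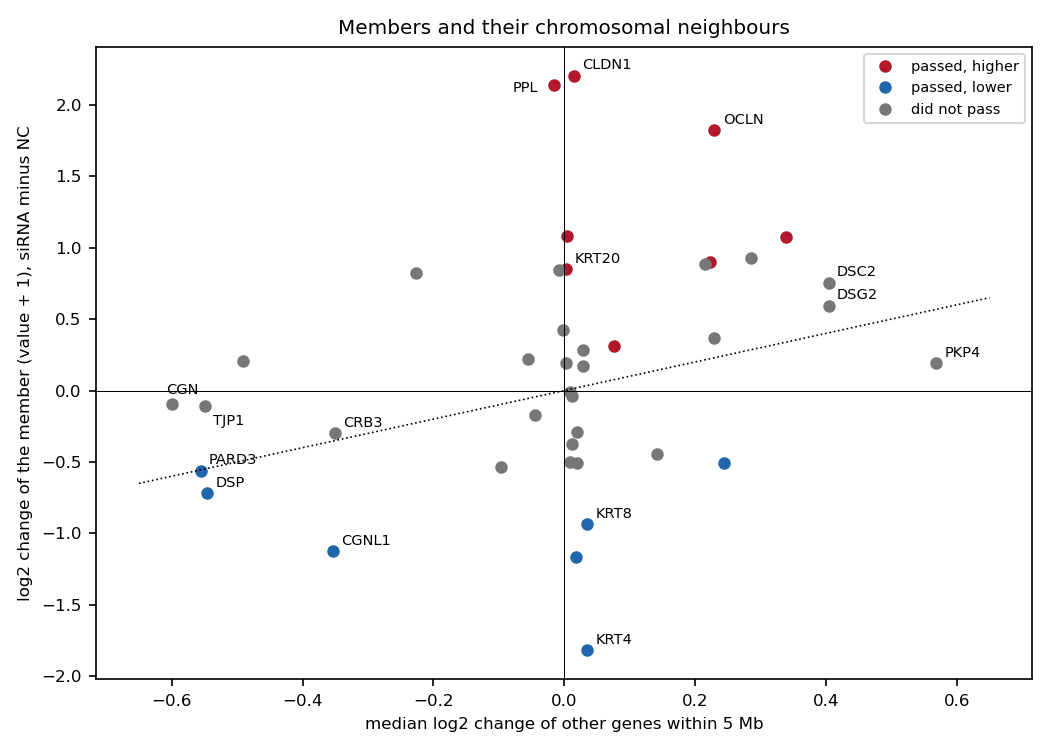
Log2 change of 41 of the 42 genes against the median log2 change of the other tested genes within 5 Mb, with the dotted line where both are equal. PARD3 lies on the line at -0.56, and CLDN1, PPL, KRT8 and KRT20 lie near 0 on the horizontal axis. DSC2 and DSG2 share most of their neighbours.

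Genes that work with these proteins were taken from lists of related genes, to be read against 21.7% higher, 20.8% lower and a median log2 change of 0.012 over all genes tested. Of 13 partners of the polarity complexes 1 rose and 2 fell, with a median log2 change of 0.029. PRKCI, the atypical protein kinase C of the PARD3 complex, rose from 53.7 ± 7.97 to 72.4 ± 1.48. LLGL1, which opposes that complex, fell from 35.5 ± 6.25 to 18.4 ± 1.56, and STK11, the polarity kinase LKB1, fell from 106.5 ± 5.33 to 56.4 ± 2.88 (SD, n = 4; limma adjusted p = 0.0152, 0.00119 and 9.2e-05). The 122 genes within 5 Mb of STK11 had a median log2 change of -0.57. Those of PRKCI had a median of 0.40, beside a log2 change of 0.44 for PRKCI itself, and those of LLGL1 had 0.13. Of 14 further tight junction genes 2 rose and 4 fell (median 0.028). ESAM, an adhesion molecule of endothelial tight junctions, rose from 17.2 ± 5.36 to 60.6 ± 11.7. The exchange factor genes ARHGEF2, whose product binds cingulin, and ARHGEF11, whose product binds ZO-1, fell from 229.7 ± 129.8 to 49.98 ± 1.77 and from 189.6 ± 11.1 to 82.5 ± 5.56 (SD, n = 4; limma adjusted p = 0.000455, 0.00285 and 3.3e-05). ARHGEF2 and ARHGEF11 lay among neighbours with medians of -0.56 and -0.52, and the log2 change of ARHGEF2 was -1.27 against NC replicates 3 and 4 alone and -2.71 against NC replicates 1 and 2 alone.

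Of 13 adherens junction genes 4 rose and 1 fell (median log2 change 0.085). CDH2, N-cadherin, rose from 145 ± 27.3 to 253 ± 9.18, NECTIN3, a nectin, from 8.29 ± 1.48 to 21.2 ± 2.18, and LIMA1, which links catenins to actin, from 295.5 ± 75.8 to 925 ± 18.4 (SD, n = 4; limma adjusted p = 0.00154, 0.000228 and 0.000132). Neighbours within 5 Mb had medians of 0.34 for CDH2 and 0.27 for NECTIN3, beside log2 changes of 0.82 and 1.265 for the genes themselves. For LIMA1 the neighbour median was 0.029, beside 1.68. CDH1, E-cadherin, the defining cadherin of epithelia, was low in both groups, at 4.82 to 15.0 and 4.56 to 13.1, and did not pass (adjusted p = 0.808). Of 10 desmosome partners and plakins 3 rose and 1 fell (median 0.17). CTNNBL1, whose product is better known from the spliceosome, rose from 38.2 ± 5.16 to 54.3 ± 1.87 and PKN2, a protein kinase, from 51.7 ± 3.77 to 79.8 ± 4.70. PNN, pinin, a protein of desmosomes and of nuclear speckles, fell from 140.2 ± 18.8 to 83.6 ± 3.23 (SD, n = 4; limma adjusted p = 0.00606, 0.000957 and 0.000960). Neighbour medians were 0.30 for PKN2, beside a log2 change of 0.62, 0.091 for CTNNBL1, beside 0.51, and 0.097 for PNN, beside -0.73.

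Of 11 other intermediate filament genes 1 rose and 5 fell, with a median log2 change of -0.56. SYNM, synemin, fell from 3.82 ± 1.49 to 0.532 ± 0.073, TCHP, trichoplein, which binds keratins, fell from 38.6 ± 3.06 to 25.8 ± 2.09, and IFFO2 rose from 18.7 ± 1.46 to 30.1 ± 2.63 (SD, n = 4; limma adjusted p = 0.000588, 0.00273 and 0.00157). SYNM passed the filter on low values only through the NC libraries, and its neighbours had a median of -0.64. VIM, vimentin, the filament protein of mesenchymal cells, stood at 8.99 to 11.4 in the NC and 7.62 to 11.1 in the siRNA libraries and did not pass (adjusted p = 0.465). Of 17 regulators of epithelial genes 7 rose and 1 fell, with a median log2 change of 0.74. HNF4A, a hepatocyte factor that acts on junction genes in mouse liver, rose from 31.4 ± 3.50 to 56.5 ± 6.12. SNAI2, a repressor that binds the E-box shown above, rose from 4.92 ± 3.03 to 20.5 ± 2.55, and TFAP2A, a factor of ectodermal epithelia, fell from 8.45 ± 1.13 to 3.31 ± 0.678 (SD, n = 4; limma adjusted p = 0.000901, 0.00245 and 0.000769). For SNAI2 the log2 change was 2.65 against NC replicates 3 and 4 alone and 1.37 against NC replicates 1 and 2 alone. The neighbours of TFAP2A had a median of -0.44. The list named for epithelial regulators thus holds factors of both signs, since GRHL1, ESRP2, ELF3 and TP63 are activators of epithelial programmes and SNAI2 and ZEB1 are repressors of them. Of 7 gap junction genes 2 rose and 1 fell (median log2 change 0.34). The connexin genes GJA1 and GJA3 rose from 0.322 ± 0.269 to 4.60 ± 0.570 and from 0.917 ± 0.192 to 6.70 ± 1.39, and PANX2, a pannexin, fell from 28.6 ± 13.6 to 12.3 ± 1.22 (SD, n = 4; limma adjusted p = 5.1e-05, 5.1e-05 and 0.0284). GJA1 passed the filter on low values only through the siRNA libraries, and GJA3 reached 1 in 1 NC library. The log2 change of PANX2 was -0.42 against NC replicates 3 and 4 alone and -1.63 against NC replicates 1 and 2 alone.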

How the data were processed

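Poly(A)-selected RNA of 8 HCCLM3 libraries had been sequenced with paired-end reads, per the labels' protocols. The deposited table holds a read signal per gene that the authors had scaled by library size. Within a column, values step by the worth of 1 read, which gave back whole reads (100% within 0.02 reads); where the smallest value was 2 steps, 2 reads were assumed. Column totals ran from 912904 to 1082965. Per the submitters' processing notes, the build was hg38 and the tools were HTSeq 0.12.4, HISAT2, Trimmomatic, FastQC, edgeR and DESeq2; roles and use of strand are not given in the sources. Every gene was above 1 in at least 3 libraries, so genes low in all libraries are not analysed here. Genes low throughout 1 group are present only through the other group.

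The main test was limma 3.58.1 (R 4.3.3, trend and robust options) on log2(value + 1) for the 11812 genes that reached 1 in 4 or more libraries, with group as the only term. Log2 changes on this scale understate the change of low genes; folds were computed from the group means. The script was tested on simulated data with the same dispersion for every gene and no split within the NC libraries. That test does not cover the split seen here. Alternatives were edgeR 4.0.16, DESeq2 1.42.0 and limma-voom on recovered reads, other scalings, pseudocounts, filters and thresholds, a replicate block, leaving out each library or each NC pair, and removing 10 Mb bin medians (279 bins).

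The rule for genes and the lists of related genes were chosen with earlier results of these data known, so none of their patterns is independent of those results. Genes were named by a rule: in each family up to 4 genes past the threshold with the smallest adjusted p and the gene with the largest mean; every gene past the threshold with an absolute log2 change of at least 1; the 4 with the widest gap between the NC pairs; KRT8, KRT18, KRT19, KRT7, DSP, JUP, OCLN and TJP1; up to 3 genes per list of related genes; and PTK2. Other genes were named after their values were seen. Positions and transcript lengths came from GENCODE v29 (GRCh38), using the longest principal transcript. The values of 1 of the 42 genes are not reported here.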

Additional observations from a re-analysis of the deposited data

How the results depend on the processing

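Of 545 values of 25 named genes under 22 alternatives, 444 kept their direction and side of the threshold, 73 no longer passed, 16 newly passed and 12 changed sign. TMM scaling of the recovered reads gave back the deposited scaling (median log2 shift -4.9e-11, 5015 calls as in the main fit). The fit with no filter took in 11818 in place of 11812 genes (5016 calls). Agreement under these settings was nearly fixed beforehand and adds no support, although it is counted among the 444. An adjusted p under 0.01 left 3034 genes, of which 5 were higher and 3 lower among the 42. A value of at least 5 in 4 libraries left 4 lower, a filter that removes low genes. Without NC replicates 1 and 2 there were 7782 calls, 21 of the 42 higher and 11 lower, and with 10 Mb bin medians removed, chosen after the data were seen, 4 higher and 4 lower; the cause was not tested. Leaving out 1 library at a time gave 5 to 15 higher, 3 to 8 lower and 3853 to 5535 calls over all genes. The KRT8 to KRT18 log2 ratio differed by -1.30 to -0.93 when 1 library was left out, with an exact permutation p of 0.0571 without any 1 siRNA library; by -1.52 without NC replicates 1 and 2 and by -0.69 without NC replicates 3 and 4, where the smallest exact p is 0.0667. With the replicate block it was -1.11 (exact sign-flip p = 0.125, the smallest possible), and 4546 genes were called, 8 of the 42 higher and 6 lower. Over genes with a mean of at least 5, deviations of same-numbered libraries from their group means correlated at -0.0634, 0.166, -0.0712 and 0.182. Differently numbered NC and siRNA libraries gave -0.196 to 0.162. These values do not settle whether the numbers pair the libraries. Sign changes were KRT19 at 0.21 and KRT80 at -0.43 without NC replicates 3 and 4; KRT7 at 0.17 without NC replicates 1 and 2 and from -0.15 to 0.090 with 1 library left out; and TJP1 at 0.42 without NC replicates 1 and 2, 0.30 with bin medians removed and from -0.30 to 0.093 with 1 library left out. The count tools called 7 higher and 7 lower (edgeR), 9 and 8 (DESeq2) and 12 and 6 (limma-voom). In 50 groups of 4 libraries no outlier was found by Dixon's criterion. The criterion looks for a single library apart from the rest, so it does not address the split of the NC libraries into pairs.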
